A study of Rattus norvegicus with 16 samples.

Results

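The collagens are a family of matrix proteins whose genes carry symbols of the form Col, a type number, the letter a and a chain number. Of 44 such rat symbols in the RefSeq gene table, 18 had at least 1 probe on the array that could be named through its accession, out of 15159 named genes in all. The 18 were taken by symbol alone, although the family was chosen with earlier results of these data known. Each was read on the probe with the highest mean signal over the arrays (6 genes had more than 1 probe, 25 probes in all). No probe was matched to the other 26 symbols, among them Col4a2, Col5a2, Col6a1, Col6a3, Col12a1, Col15a1 and Col17a1, and these are not analysed here.

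Collagens are built of chains wound around each other into a triple helix. Types I, III and V form the banded fibrils of connective tissue, type IV forms the meshwork of basement membranes, type VII forms the fibrils that anchor a basement membrane to the tissue under it, and type VI forms beaded filaments around cells. In the gut wall they are made mainly by fibroblasts and related mesenchymal cells, with endothelium, smooth muscle and epithelium adding basement membrane chains, and collagen accumulates when inflamed bowel heals.

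RNA came from normal distal colon of 16 male rats, all F1 offspring of ACI and F344 parents and all 97 days old. They made up 4 groups of 4 rats: wildtype rats left untreated, wildtype rats given dextran sodium sulfate (DSS), Pirc rats left untreated, and Pirc rats given DSS. Pirc rats (Pirc/+) carry 1 mutant copy of Apc, the gene whose loss starts most intestinal tumors, while the wildtype rats carry none. DSS, a sulfated polysaccharide that injures the colonic lining, was given at 4% in the drinking water on days 40 to 47 and again on days 54 to 61, so that tissue was taken 36 days after the last dose. Each rat was hybridised to 1 single-colour Agilent array, which measures each probe as the brightness of its spots.

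Levels below are log2 values relative to the 75th percentile of the array, so that 0 is the level of a probe brighter than 75% of the spots, and a level says nothing about the amount of one collagen against another. The 4 values of a group follow the rat numbers, which are 13, 17, 21 and 25 for untreated wildtype, 14, 18, 22 and 26 for DSS-treated wildtype, 11, 15, 19 and 23 for untreated Pirc and 12, 16, 20 and 24 for DSS-treated Pirc rats. Differences were tested with limma over all 30367 probes. A gene is said to have risen or fallen, or to be called, at a Benjamini-Hochberg adjusted p of 0.05 or less when the change also reached a factor of 2. Between 71.1% and 80.3% of the spots were well above background on each array. Each of the 2 slides held 2 rats of every group, but each group lay in 1 column of the slides, so group and column cannot be told apart. The tissue was homogenized, and the labels do not say which layers of the wall it held. The study's methods describe epithelium scraped from the lumen for rat arrays of another format, and whether these samples were taken so is not stated. In such bulk tissue, more or fewer cells of a type and more or less RNA per cell cannot be told apart. The 11 colon epithelial markers used were well above background on every array, with a summed level of 413 to 644 times the 75th percentile. Of the 18 collagens, 14 were well above background on all 16 arrays, Col9a2 on 14, Col7a1 on 9, Col23a1 on 4 and Col13a1 on 0.

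Over both genotypes 8 of the 18 collagens rose with DSS and 0 fell (limma), which is 44.4% of the members against 5.0% of all probes called higher and 0.988% called lower. The 8 were the fibrillar Col1a1, Col1a2, Col3a1 and Col5a1, the basement membrane chain Col4a1, the basement membrane zone collagens Col7a1 and Col18a1, and the beaded filament chain Col6a2. Their log2 changes ran from 1.46 for Col6a2 to 3.74 for Col7a1. By adjusted p alone, 11 members were higher (10.2% of all probes) and 1 was lower (6.99% of all probes). The median log2 change of the 18 collagens was 0.85, and that of all probes was 0.06. In 9 of the 18 members every DSS-treated rat lay above every untreated rat of its own genotype, in both genotypes, as was so for 3.42% of all probes. These were Col1a1, Col1a2, Col3a1, Col5a1, Col5a3, Col6a2, Col7a1, Col14a1 and Col18a1. Quantile normalization moved the median change of all probes to -0.06 and called the same 8 members higher, with Col11a2 called lower in addition.

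**Figure D1:**
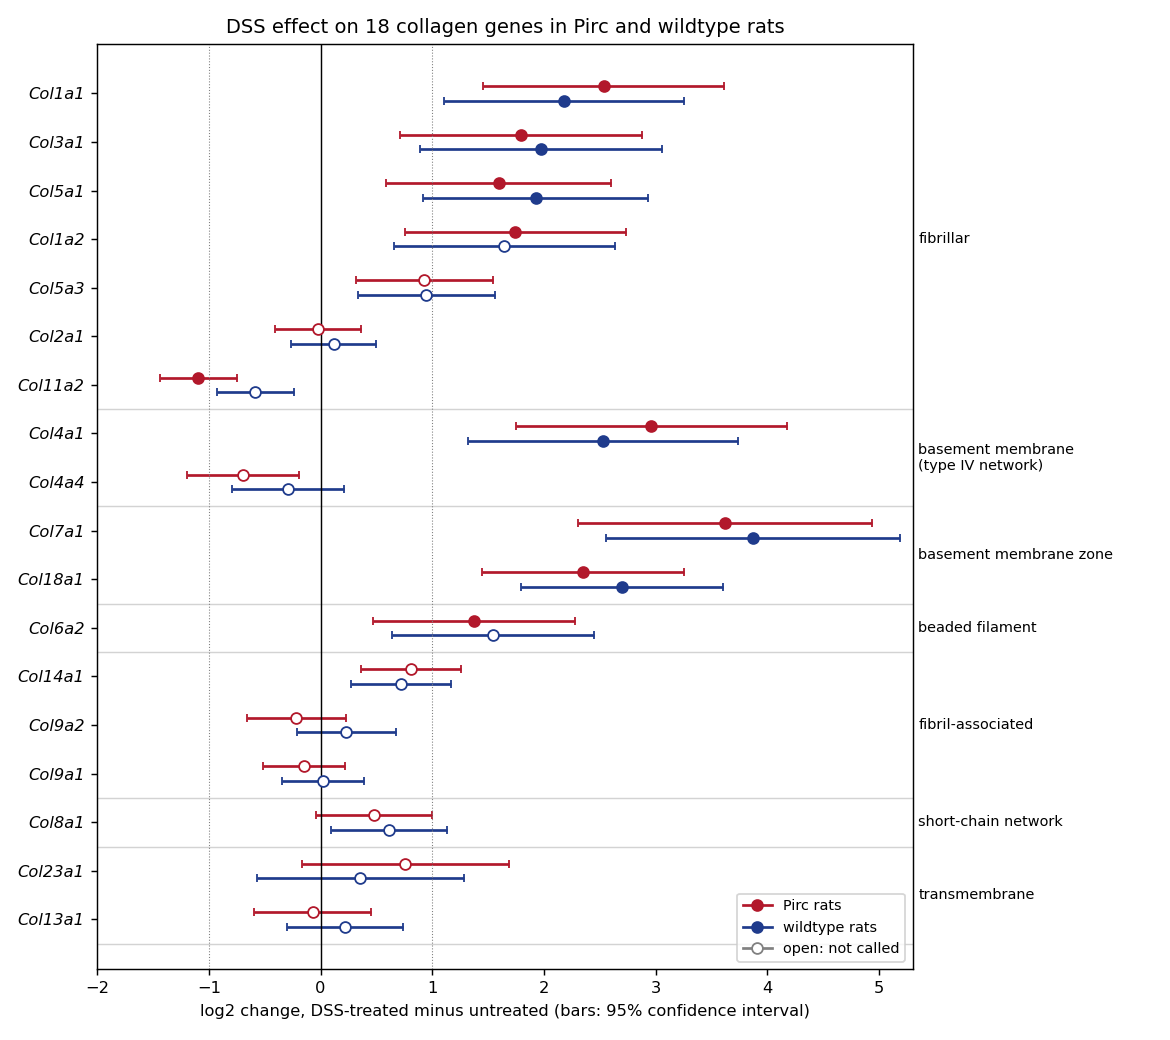
Log2 change with DSS (DSS-treated minus untreated, 4 rats against 4 in each genotype) for the 18 collagen genes, grouped by the structure they form, in Pirc rats and in wildtype rats. Points are limma estimates, bars are 95% confidence intervals, filled points were called, and dotted lines mark a factor of 2. The 8 members called over both genotypes lie to the right of 1 in both genotypes, and Col11a2 is the 1 member called lower, in Pirc rats.

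RefSeq promoter windows (GRCr8) were at hand for 13 of the 18 members, 5 of them among the 8 that rose. Stretches of 100 bases from 4 of these 5 are printed because the genes moved together and each stretch holds a common promoter element, set in capitals. The elements were searched on both strands in the 250 bases before the start. They were the CCAAT box (spelled CCAAT, or ATTGG where it lies on the opposite strand), the TATA box (spelled TATAAA, or TTTATA on the opposite strand) and the GC box (spelled GGGCGG, or CCGCCC on the opposite strand). No marked element overlaps another. All stretches are given 5′ to 3′ on the plus strand, which is the strand of these genes. That of Col1a2 is chr4:33518307-33518406, 250 to 151 bases before the RefSeq start. That of Col4a1 is chr16:84885397-84885496, 200 to 101 bases before. That of Col7a1 is chr8:118483244-118483343, 120 to 21 bases before, and that of Col18a1 is chr20:11473545-11473644, 100 to 1 bases before.
Col1a2: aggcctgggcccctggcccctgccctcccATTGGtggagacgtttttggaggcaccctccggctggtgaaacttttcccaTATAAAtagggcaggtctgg
Col4a1: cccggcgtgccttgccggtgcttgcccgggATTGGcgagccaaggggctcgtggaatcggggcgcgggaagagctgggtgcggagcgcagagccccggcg
Col7a1: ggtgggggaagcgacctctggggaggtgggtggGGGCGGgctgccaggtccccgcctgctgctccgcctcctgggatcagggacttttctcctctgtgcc
Col18a1: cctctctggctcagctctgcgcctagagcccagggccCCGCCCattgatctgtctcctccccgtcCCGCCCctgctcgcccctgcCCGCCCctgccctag

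Col1a2 held an opposite-strand CCAAT 221 bases and a TATAAA 170 bases before the start, and Col4a1 an opposite-strand CCAAT at 170 bases and an opposite-strand GGGCGG at 16 bases, outside the stretch printed. Col7a1 held GGGCGG at 87 bases, and Col18a1 held it 3 times, at 63, 35 and 15 bases on the opposite strand. Col5a1, the other riser with a window, held GGGCGG at 127 bases. GGGCGG was thus in 4 of the 5 windows of called genes and in 8 of the 13 windows in all, against 30.5% of 33469 windows in the table. CCAAT was in 2 of the 5 and 3 of the 13, against 34.0% of windows, and TATAAA in 1 of the 5 and 2 of the 13, against 12.9%. These are matches of letters, not tested binding sites.

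Among the fibrillar collagens, 4 of 7 rose with DSS over both genotypes, beside 5.0% of all probes called higher. Col1a1 encodes the alpha 1 chain of type I collagen, the main fibril of the gut wall. Its log2 levels were -2.17, -2.0, -1.91 and -1.95 in untreated wildtype rats and 1.67, 0.81, -0.90 and -0.88 in DSS-treated wildtype rats. In Pirc rats they were -1.95, -1.99, -1.18 and -1.52 untreated and 0.19, 1.89, 0.38 and 1.04 after DSS. Treated and untreated rats did not overlap in either genotype, and among the DSS-treated wildtype rats 14 and 18 were high while 22 and 26 lay closer to the untreated. The change over both genotypes was 5.12-fold (log2 change 2.36, SE 0.36, limma adjusted p = 0.000363). Taken alone, Pirc rats gave a log2 change of 2.53 (adjusted p = 0.00371) and wildtype rats one of 2.18 (adjusted p = 0.0266).

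Col1a2 encodes the partner chain of Col1a1 in the same triple helix. Its log2 levels in wildtype rats were -0.53, -0.43, -0.45 and -0.24 untreated and 2.71, 1.69, 0.19 and 0.34 after DSS. Pirc rats had levels of -0.39, -0.36, 0.38 and 0.14 untreated and 1.18, 2.47, 1.11 and 2.0 after DSS. Again no treated rat fell below an untreated rat of its genotype, although wildtype rats 22 and 26 cleared them narrowly. Col1a2 rose 3.24-fold over both genotypes (log2 change 1.69, SE 0.33, adjusted p = 0.00235). In Pirc rats alone it rose by 1.74 (adjusted p = 0.0208), and in wildtype rats the difference of 1.64 missed the threshold (95% interval 0.65 to 2.64, adjusted p = 0.0649). The Col1a2 promoter stretch printed above has the TATAAA element that none of the other 4 windows of called genes had.

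Col3a1, the single chain of type III collagen, forms thin fibrils with type I in distensible organs. Its levels in wildtype rats were -1.5, -1.85, -1.73 and -0.86 untreated and 1.67, 1.19, -0.62 and -0.28 after DSS, and in Pirc rats -1.27, -1.24, -0.54 and 0.05 untreated and 0.55, 2.02, 0.32 and 1.28 after DSS. The lowest treated wildtype rat lay only a little above the highest untreated one, untreated rat 25, and the same held in Pirc rats with untreated rat 23. Col3a1 rose 3.69-fold over both genotypes (log2 change 1.88, SE 0.36, adjusted p = 0.00206), by 1.79 in Pirc rats (adjusted p = 0.0284) and by 1.98 in wildtype rats (adjusted p = 0.0437).

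Col5a1 encodes a chain of type V collagen, which nucleates type I fibrils and limits their width. In wildtype rats its levels were -6.17, -6.25, -6.20 and -6.09 untreated and -2.87, -3.77, -5.30 and -5.05 after DSS. The Pirc rats showed -5.50, -5.39, -4.83 and -5.71 untreated and -4.35, -2.93, -4.53 and -3.22 after DSS. Groups did not overlap within a genotype. Col5a1 rose 3.39-fold (log2 change 1.76, SE 0.33, adjusted p = 0.00199), by 1.60 in Pirc rats (adjusted p = 0.0348) and by 1.93 in wildtype rats (adjusted p = 0.0352). With normexp background correction the change over both genotypes came under a factor of 2 and the call was lost.

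The other 3 fibrillar members were not called over both genotypes. Col5a3, another type V chain, was 1.92-fold higher (log2 change 0.94, SE 0.20, adjusted p = 0.00498), just short of a factor of 2 although the treated rats of each genotype lay above the untreated. Col2a1, the main collagen of cartilage, differed by 0.05 (95% interval -0.22 to 0.32, adjusted p = 0.854). Col11a2, a chain of the cartilage type XI collagen, went the other way. Its levels in Pirc rats were -4.07, -3.82, -4.35 and -4.26 untreated and -5.30, -5.04, -5.25 and -5.28 after DSS, without overlap. In wildtype rats they were -3.68, -3.96, -3.73 and -4.09 untreated and -4.43, -4.55, -4.73 and -4.07 after DSS, where treated rat 26 lay among the untreated. Col11a2 fell in Pirc rats (log2 change -1.09, SE 0.16, adjusted p = 0.000544), and differed by -0.58 in wildtype rats (adjusted p = 0.061) and by -0.84 over both (adjusted p = 0.000176, a change of less than a factor of 2).

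**Figure D2:**
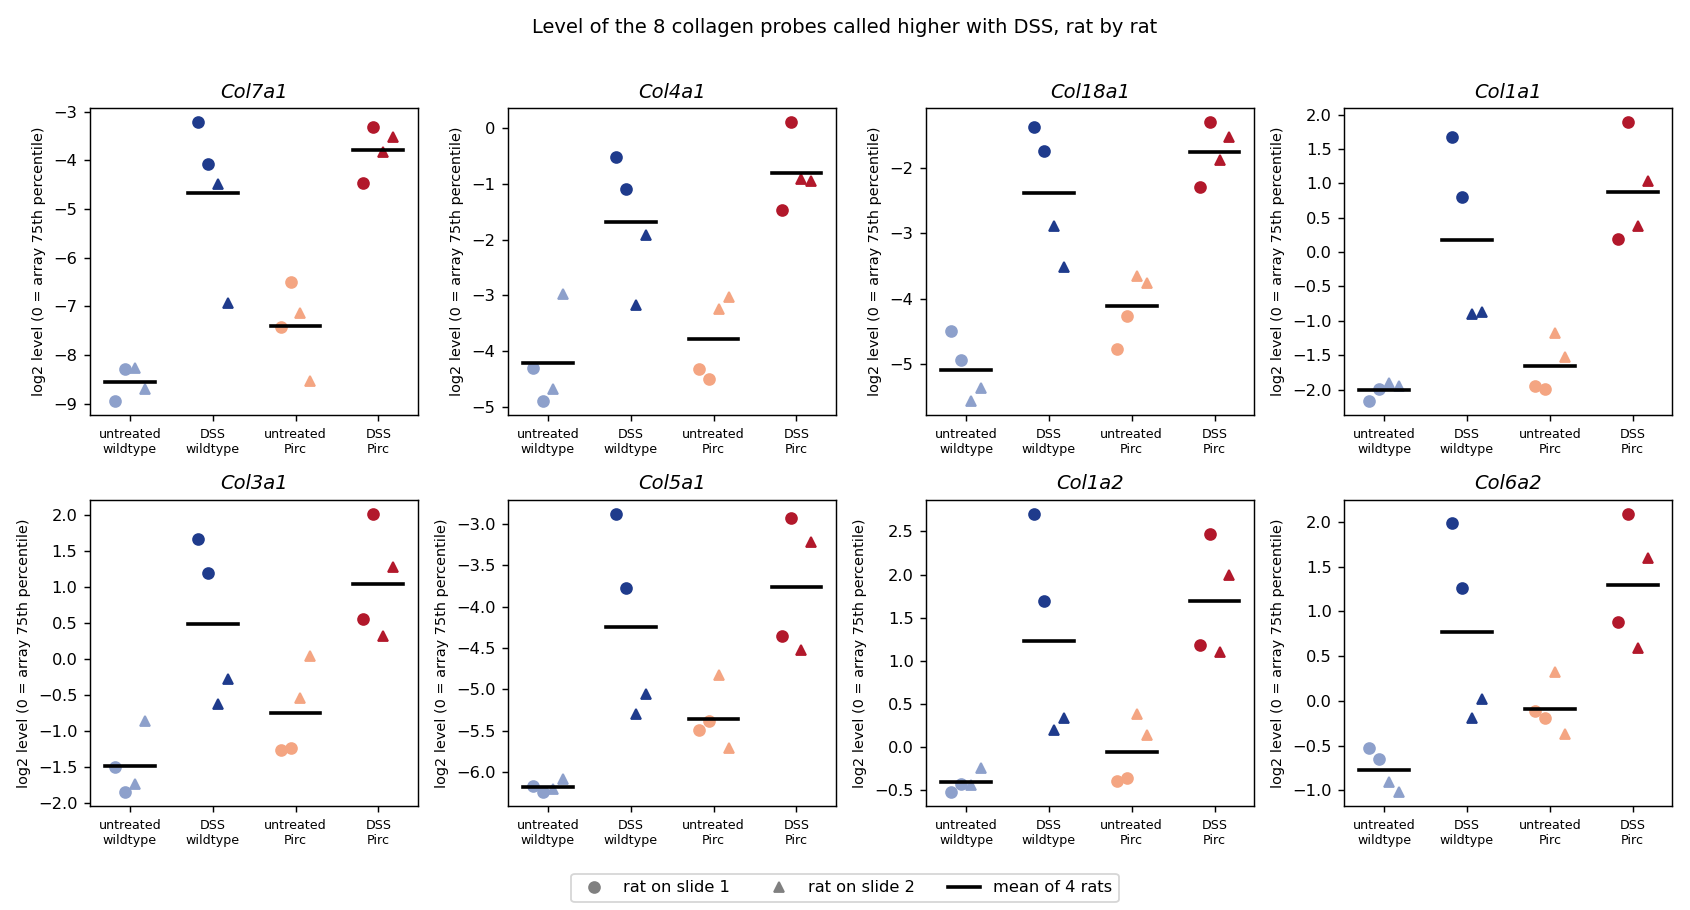
Log2 level (0 is the 75th percentile of the array) of each rat for the 8 collagen probes that were called higher with DSS over both genotypes, in order of their change. Circles are rats on slide 1, triangles are rats on slide 2, and bars are means of 4 rats. In the DSS-treated wildtype group the 2 circles lie above the 2 triangles in every panel.

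On the probes used, the 3 largest changes among the 18 over both genotypes were those of basement membrane collagens, Col7a1, Col4a1 and Col18a1. The place of Col4a1 rests on the choice of probe, since its second probe differed by 0.28 (limma adjusted p = 0.174). In Pirc rats Col1a1 changed more than Col18a1. Col4a1, a chain of the type IV network found in every basement membrane, had levels of -4.31, -4.89, -4.67 and -2.97 in untreated and -0.52, -1.10, -3.18 and -1.93 in DSS-treated wildtype rats. In Pirc rats they were -4.32, -4.49, -3.25 and -3.03 untreated and -1.47, 0.10, -0.93 and -0.95 after DSS. The Pirc groups were well apart, but in wildtype rats the untreated rat 25 at -2.97 was above the treated rat 22 at -3.18. Col4a1 rose 6.71-fold over both genotypes (log2 change 2.75, SE 0.40, adjusted p = 0.000282), by 2.96 in Pirc rats (adjusted p = 0.00297) and by 2.53 in wildtype rats (adjusted p = 0.0232). Col4a4, a chain of the other type IV network known best from kidney, did not rise: it differed by -0.49 over both genotypes (95% interval -0.85 to -0.14, adjusted p = 0.0541) and by -0.69 in Pirc rats (adjusted p = 0.0619). The 2 measured chains of type IV collagen thus had opposite signs.

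Col7a1 encodes the anchoring fibril collagen, which is abundant under stratified epithelium. Its levels in wildtype rats were -8.94, -8.28, -8.26 and -8.70 untreated, not well above background in any rat, and -3.22, -4.08, -4.48 and -6.92 after DSS, well above background in 3 of 4. Pirc rats had levels of -7.42, -6.50, -7.14 and -8.54 untreated, well above background in 2 of 4, and -4.46, -3.31, -3.83 and -3.52 after DSS, well above background in all 4. Treated wildtype rat 26, at -6.92, was the 1 treated rat near the untreated level. Over both genotypes the fitted change was the largest of the 18 (log2 change 3.74, SE 0.44, adjusted p = 5.9e-05), but it is not a measured fold, since 6 of the 8 untreated rats were not well above background. In wildtype rats the fitted log2 change was 3.87 (limma adjusted p = 0.00466). With the untreated level taken as a bound set by background, Col7a1 was 13.7-fold higher after DSS in wildtype rats. Only 3 of 4 treated wildtype rats were well above background, so this is not a strict lower bound. In Pirc rats, with 2 of 4 untreated rats measured, the fitted log2 change was 3.62 (adjusted p = 0.00139).

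Col18a1 encodes a basement membrane proteoglycan collagen whose end fragment is endostatin. Its levels in wildtype rats were -4.49, -4.94, -5.56 and -5.36 untreated and -1.38, -1.74, -2.90 and -3.52 after DSS. The Pirc rats showed -4.76, -4.26, -3.65 and -3.76 untreated and -2.30, -1.31, -1.88 and -1.53 after DSS. Treated and untreated rats were apart in both genotypes, the treated wildtype rats 22 and 26 again being the lowest of the treated. Col18a1 rose 5.76-fold over both genotypes (log2 change 2.53, SE 0.30, adjusted p = 6.48e-05), by 2.35 in Pirc rats (adjusted p = 0.00197) and by 2.70 in wildtype rats (adjusted p = 0.00421). Col7a1 and Col18a1 were called in each genotype under each processing tried here and with any 1 rat left out.

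Col6a2 encodes a chain of the beaded filaments that link cells to the surrounding matrix. Its levels in wildtype rats were -0.53, -0.65, -0.90 and -1.02 untreated and 1.98, 1.26, -0.19 and 0.02 after DSS, and in Pirc rats -0.11, -0.20, 0.33 and -0.37 untreated and 0.88, 2.09, 0.59 and 1.59 after DSS. The groups did not overlap within a genotype, but the lowest treated Pirc rat, 20 at 0.59, was near the highest untreated one, 19 at 0.33. Col6a2 rose 2.75-fold over both genotypes (log2 change 1.46, SE 0.30, adjusted p = 0.00349) and by 1.38 in Pirc rats (adjusted p = 0.0421). In wildtype rats the difference was 1.54 (95% interval 0.64 to 2.45, adjusted p = 0.0584).

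The remaining members form fibril-associated, short-chain and transmembrane collagens, and 0 of these 6 were called with DSS in either genotype (limma). Of the 6, 2 had an unadjusted p under 0.05 over both genotypes, Col14a1 and Col8a1, beside 8499 of all 30367 probes. Col14a1, which binds the surface of type I fibrils, was 1.7-fold higher over both genotypes (log2 change 0.76, SE 0.15, adjusted p = 0.00234). Its treated rats had levels of -3.60, -4.26, -4.65 and -4.46 (wildtype) and -4.62, -4.50, -4.38 and -4.57 (Pirc), all above the untreated rats of their genotype, which ran from -5.17 to -4.69 and from -5.74 to -5.02. Col8a1, a network collagen of vessel walls, was 1.46-fold higher (adjusted p = 0.0393). The cartilage collagens Col9a1 and Col9a2 differed by -0.06 (95% interval -0.33 to 0.20) and 0.01 (95% interval -0.31 to 0.32). Col13a1 was not well above background on any array, and Col23a1 was so on 4 arrays, with a difference of 0.56 (adjusted p = 0.264).

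Within the genotypes, 8 of the 18 collagens rose and 1 fell with DSS in Pirc rats, against 5.51% of all probes called higher and 1.95% called lower. In wildtype rats 6 rose and 0 fell (limma, 5106 of the 30367 probes and 12 members at an unadjusted p under 0.05), against 2.37% higher and 0.402% lower. With quantile normalization the calls over all probes were 1436 higher and 837 lower in Pirc rats, in place of 1672 and 593, and 563 and 213 in wildtype rats, in place of 719 and 122. Among members it called 8 higher and 1 lower in Pirc rats and 5 higher in wildtype rats, leaving out Col5a1. The wildtype count rested on single rats: 2 members, Col7a1 and Col18a1, were called without rat 13, 14, 17, 18 or 21, and 3 without rat 25, whereas 9 were called without rat 22 or 26. In Pirc rats the count of 9 went to 5 without rat 11 or 16, to 4 without rat 15 and to 6 without rat 24. When only the 8 wildtype arrays were fitted, 2 members were called, and calls over all probes went to 326 higher and 76 lower. By adjusted p alone, Col6a2 missed the threshold in Pirc rats under 14 of the alternatives run, Col5a1 under 7, Col3a1 under 5 and Col1a2 under 3. In wildtype rats Col3a1 missed it under 16, Col5a1 under 12, Col1a1 under 9 and Col4a1 under 6. A member called in one genotype and not in the other is not thereby shown to differ between them. For the difference of the DSS effects itself (Pirc minus wildtype), 0 of the 18 members and 0.0428% of all probes were called (limma). A linear model without moderation also called 0 members. In limma 3234 probes and 1 member had an unadjusted p under 0.05. That member was Col11a2, with a difference of -0.51 (SE 0.23, adjusted p = 0.45). The next largest differences were those of Col9a2, -0.45 (95% interval -1.07 to 0.18), and Col4a1, 0.43 (95% interval -1.28 to 2.14). The intervals of the 18 differences reached from -2.12 to 2.14, so that with 4 rats per group sizable differences between the genotypes could go undetected.

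The rats of a treated group largely kept their order from gene to gene. Among the DSS-treated wildtype rats, rat 14 had the highest level in 8 of the 8 called collagens and rat 18 the next highest in 8 of 8, while rat 22 was the lowest in 6 and rat 26 in 2. Averaged over the 8, these rats lay 3.59 (rat 14), 2.87 (rat 18), 1.42 (rat 22) and 1.31 (rat 26) above the untreated wildtype mean on the log2 scale. Rats 14 and 18 shared slide 1, and rats 22 and 26 shared slide 2. Among the DSS-treated Pirc rats, rat 16 on slide 1 was the highest in 8 of 8 and rat 24 on slide 2 next in 7 of 8, and the means were 2.37 (rat 12), 3.72 (rat 16), 2.49 (rat 20) and 3.17 (rat 24). The untreated Pirc rats 11, 15, 19 and 23 lay 0.37, 0.53, 1.10 and 0.75 above the untreated wildtype mean.

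The size of the change was set out within slides, where its sign was given beforehand for the 7 called collagens whose groups did not overlap. In wildtype rats the log2 differences ran from 2.21 to 4.96 (median 3.13) on slide 1 and from 0.61 to 2.78 (median 1.0) on slide 2, with all 8 larger on slide 1. In Pirc rats they ran from 1.64 to 3.72 (median 2.62) on slide 1 and from 1.05 to 4.16 (median 1.70) on slide 2, with 7 of 8 larger on slide 1. The exception was Col7a1, at 3.07 and 4.16. For Col1a1 the wildtype differences were 3.32 and 1.04 on the 2 slides, and for Col3a1 3.11 and 0.85. Each slide gives 2 rats against 2, for which no test was run. With slide as a block, 8 members were called over both genotypes, 9 in Pirc rats and 7 in wildtype rats. Each row of a slide held 1 rat of every group, and with these 4 rows as a block the counts were 8, 9 and 4.

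**Figure D3:**
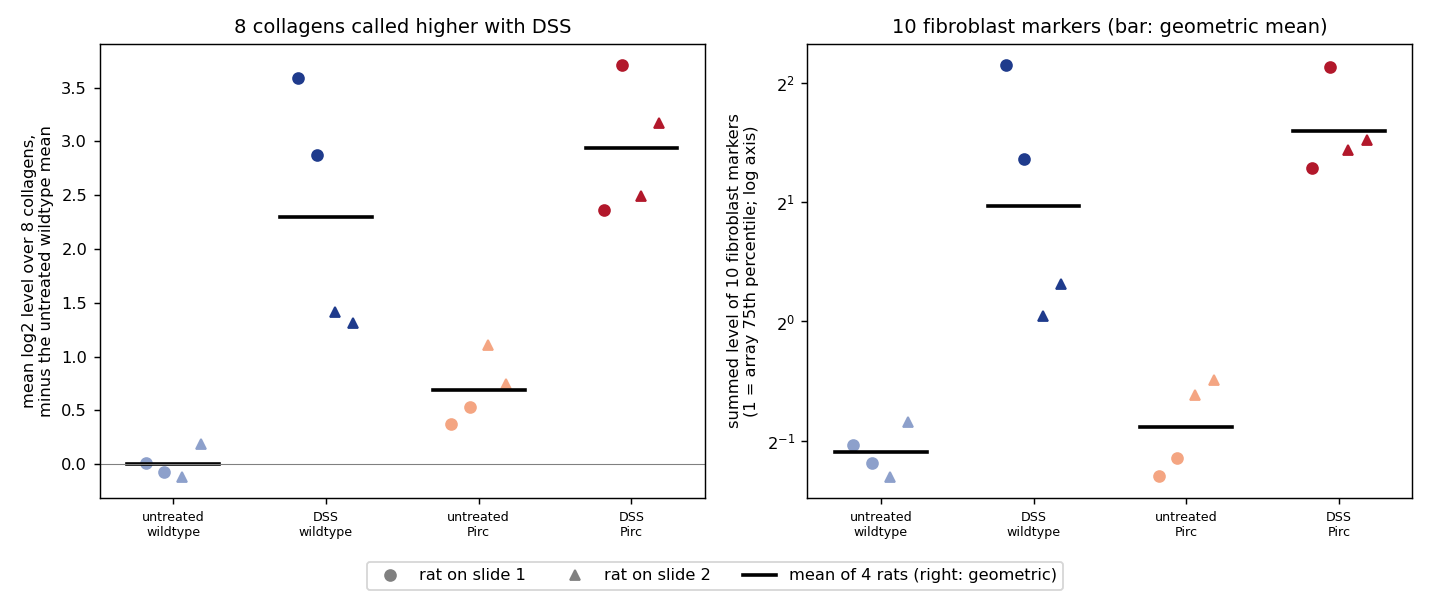
Left, the mean log2 level of the 8 called collagens in each rat, minus the mean of the untreated wildtype rats. Right, the summed linear level of 10 fibroblast markers in each rat (1 is the 75th percentile of the array, log axis). Circles and triangles are rats on slides 1 and 2, and bars are the mean of 4 rats (left) and the geometric mean (right). DSS-treated wildtype rats 14 and 18 are high and rats 22 and 26 lower in both panels.

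No collagen was called between the genotypes. In untreated rats 0 of the 18 members and 0 (0%) of all 30367 probes were called between Pirc and wildtype (limma, 3103 probes and 2 members at an unadjusted p under 0.05). These 2 were Col18a1, 0.98 higher in Pirc rats (95% interval 0.07 to 1.88, adjusted p = 0.444), and Col4a4, 0.51 higher (adjusted p = 0.479). In DSS-treated rats 0 members were called, against 5.47% of all probes, with 9518 probes and 2 members at an unadjusted p under 0.05. Of the 2 members, Col11a2 was lower in Pirc rats by adjusted p alone (log2 difference -0.77, SE 0.16, adjusted p = 0.0062), and Col9a1 differed by -0.38 (adjusted p = 0.148). Over both treatments 0 members were called, against 2.0% of all probes. An unadjusted p under 0.05 was found for 9336 of the 30367 probes and for 5 of the 18 members. These 5 members were Col7a1 (1.02), Col18a1 (0.81), Col11a2 (-0.52), Col14a1 (-0.32) and Col9a1 (-0.29). Col11a2 was the 1 of these with an adjusted p under the threshold (0.00811). The fibrillar collagens Col1a1, Col1a2, Col3a1 and Col5a1 were 0.40 to 0.66 higher in Pirc rats over both treatments, with intervals that all held 0. A linear model without moderation called 0 members in each of these comparisons.

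The probes of 3 genes gave unlike values. The second probe of Col1a1 differed with DSS by 0.66 (SE 0.22, adjusted p = 0.0553), against 2.36 for the probe used. In untreated rats the probe used was the dimmer of these 2, with means of -2.01 against -1.70 in wildtype and -1.66 against -1.61 in Pirc rats, and it had the higher mean signal over the 16 arrays through the DSS-treated groups alone. The choice by mean signal thus took the Col1a1 probe with the larger change. The second probe of Col4a1 differed by 0.28 (SE 0.13, adjusted p = 0.174), against 2.75. The 2 probes of Col11a2 had opposite signs, with 0.22 over both genotypes (adjusted p = 0.308) and 0.45 in Pirc rats (adjusted p = 0.121) for the probe not used. All 3 probes not used were well above background on every array. With the probes of each gene averaged, Col1a1 and Col4a1 were still called over both genotypes, Col1a1 was not called in wildtype rats, and Col11a2 was not called in Pirc rats. The probe sequences and their places in the transcripts were not analysed here.

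**Figure D4:**
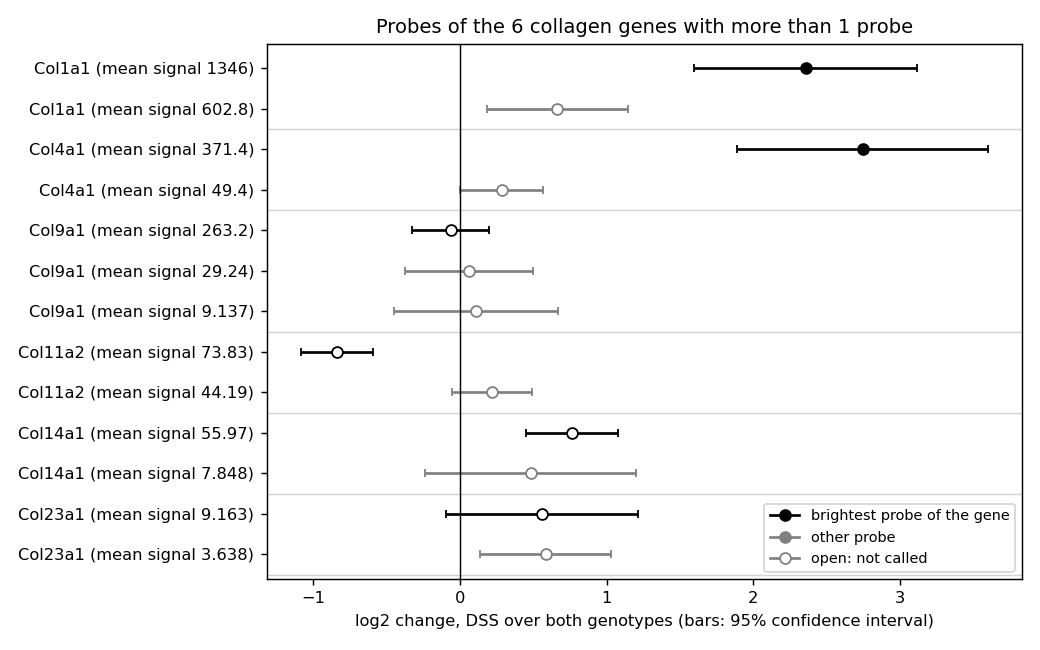
Log2 change with DSS over both genotypes for each probe of the 6 collagen genes with more than 1 probe, with the mean signal of the probe over the 16 arrays. Bars are 95% confidence intervals, black marks the brightest probe, grey the others, and filled points were called. The brightest probes of Col1a1 and Col4a1 lie past 2 while their second probes lie under 1, and the probes of Col11a2 lie on either side of 0.

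Of 33 listed genes that make and process collagen, 26 were measured, of which 4 rose and 0 fell with DSS over both genotypes, with a median log2 change of 0.12, against 5.0% of all probes called higher and a median of 0.06. Loxl1 and Loxl2 encode lysyl oxidase-like enzymes that cross-link collagen and elastin. Loxl1 changed by 2.40 (SE 0.35, adjusted p = 0.000305), and in wildtype rats, where it was not well above background in any untreated rat, it was at least 5.23-fold higher after DSS (adjusted p = 0.0173). Loxl2 rose 3.02-fold (log2 change 1.59, adjusted p = 0.00278). Plod2, the lysyl hydroxylase of the telopeptides, where cross-links form, rose 3.22-fold (log2 change 1.69, adjusted p = 0.00459). P3h4, part of a lysyl hydroxylase complex in the endoplasmic reticulum, rose 2.29-fold (log2 change 1.19, adjusted p = 0.00062). Within the genotypes, 3 of the 26 were called higher in Pirc rats, beside 5.51% of all probes. In wildtype rats 1 was called higher, Loxl1, beside 2.37% of all probes. Plod2 was called in neither genotype alone (limma adjusted p = 0.0568 in Pirc and 0.0612 in wildtype rats).

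The collagen chaperone Serpinh1 and the procollagen processing enhancer Pcolce passed by adjusted p alone, with 0.85 (adjusted p = 0.0017) and 0.79 (adjusted p = 0.00349). Prolyl 4-hydroxylase is an enzyme that collagen chains need. Its subunits P4ha1, P4ha2 and P4hb differed by 0.02, 0.09 and -0.04, with 95% intervals of -0.40 to 0.45, -0.17 to 0.35 and -0.18 to 0.10. P4ha3, well above background on only 2 arrays, differed by 0.06. Between genotypes, 1 gene of the list was called, P3h2, a prolyl 3-hydroxylase, beside 2.0% of all probes over both treatments and 5.47% in DSS-treated rats. P3h2 was lower in Pirc than in wildtype rats over both treatments (log2 difference -1.44, adjusted p = 0.0244) and in DSS-treated rats (-2.07, adjusted p = 0.0223). It was well above background in only 3 of 4 untreated and 2 of 4 DSS-treated Pirc rats, so these differences rest partly on background readings. With normexp background correction 1 of the 26 was called with DSS over both genotypes in place of 4. That setting also called fewer of all probes, 521 higher and 97 lower in place of 1519 and 300.

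Of 10 listed collagen receptors 7 were measured, and 3 rose with DSS over both genotypes, beside 5.0% of all probes called higher. Ddr2, a receptor tyrosine kinase for fibrillar collagen, changed by 2.37 (SE 0.40, adjusted p = 0.000839), and was not well above background in any untreated rat. In Pirc rats Ddr2 was at least 5.29-fold higher after DSS. In wildtype rats the same reckoning gave 4.49-fold, but only 3 of 4 treated rats were well above background, so this is not a strict lower bound. Itga1, the integrin chain that binds type IV collagen best, rose 3.79-fold (log2 change 1.92, adjusted p = 0.00124), but missed the threshold in wildtype rats alone (limma adjusted p = 0.0543). Its groups did not stay apart in wildtype rats, where untreated rat 25 was at -1.64 and treated rat 22 at -2.74. Mrc2, the receptor by which cells take up collagen fragments, changed by 1.67 (adjusted p = 0.000149) and was at least 4.35-fold higher in Pirc rats. Ddr1, the related kinase of epithelial cells, differed by 0.26 (adjusted p = 0.191) and Itgb1, the partner chain of Itga1, by 0.29 (adjusted p = 0.0516).

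**Figure D5:**
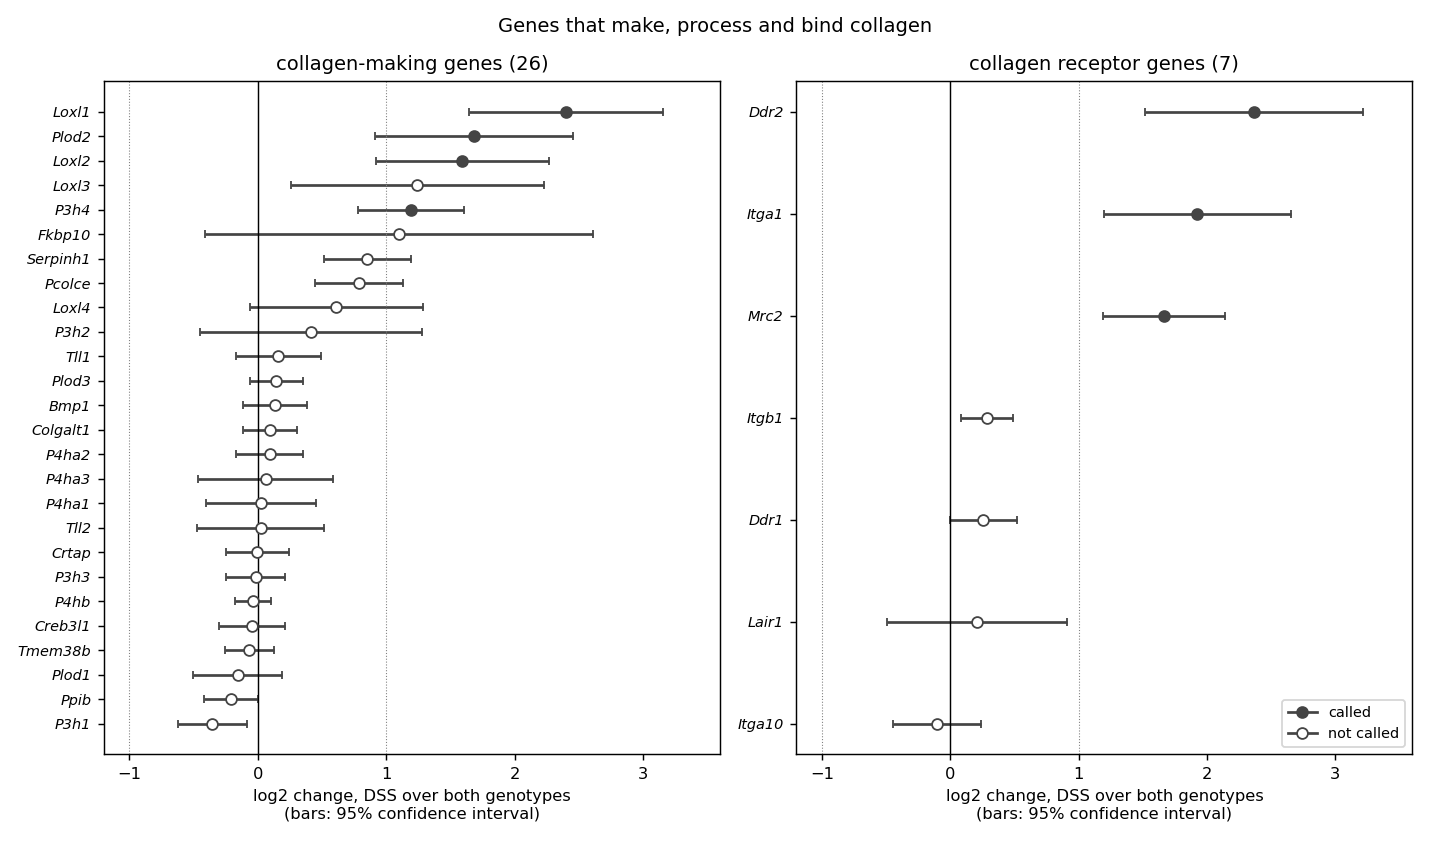
Log2 change with DSS over both genotypes for the 26 measured genes that make and process collagen (left) and the 7 measured collagen receptors (right). Bars are 95% confidence intervals, filled points were called, and dotted lines mark a factor of 2. Loxl1, Plod2, Loxl2 and P3h4 on the left and Ddr2, Itga1 and Mrc2 on the right are filled.

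Markers of several cell types moved with the collagens, and the counts below stand beside 5.0% of all probes called higher and 0.988% called lower. All 10 fibroblast markers rose over both genotypes on the log2 scale, among them Dcn (3.06), Lum (2.32) and Pdgfra (2.12). Their summed linear level, in multiples of the 75th percentile, was 0.405 to 0.558 in untreated wildtype and 0.409 to 0.714 in untreated Pirc rats. After DSS it was 4.44, 2.57, 1.03 and 1.24 in wildtype rats 14, 18, 22 and 26, and 2.44, 4.39, 2.7 and 2.86 in Pirc rats 12, 16, 20 and 24. The highest rat of each treated group was thus the one with the highest collagens. Of 7 endothelial markers 5 rose, with a summed level of 0.306 to 0.591 over the untreated rats, 0.542 to 0.930 in treated wildtype and 0.796 to 1.06 in treated Pirc rats, while Tek was not well above background on any array. Of 6 leukocyte markers 4 rose, with 0.188 to 0.285 untreated and 0.315 to 0.837 treated. The leukocyte sum, like that of the fibroblast markers, was highest in treated wildtype rat 14 (0.691) and treated Pirc rat 16 (0.837). The endothelial sum was highest in treated wildtype rat 18 (0.930, with 0.913 in rat 14) and treated Pirc rat 16 (1.06). Of 8 smooth muscle markers, Tagln rose (2.76) and Des fell (log2 change -1.49) over both genotypes, with Lmod1 not well above background on any array. Within the genotypes 0 smooth muscle markers rose, and 1 fell in Pirc rats. Pirc rats alone had 9 fibroblast, 5 endothelial and 4 leukocyte markers called higher, beside 5.51% of all probes. Wildtype rats alone had 6, 1 and 3, beside 2.37%. The summed smooth muscle level was 9.69 in untreated wildtype rat 25 and 14.6 in treated wildtype rat 26, against 2.77 to 6.17 in the other 14 rats. With rats 25 and 26 both left out, 9 collagens were called over both genotypes, 9 in Pirc rats and 6 in wildtype rats. Of the 4 enteric glia and 11 colon epithelial markers 0 were called over both genotypes (limma). Of the 15, 2 had an unadjusted p under 0.05, Slc26a3 and Vil1, beside 8499 of all 30367 probes. Slc26a3, the chloride exchanger of surface colonocytes, fell in Pirc rats (log2 change -1.72, adjusted p = 0.00268).

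Stratified squamous markers also rose over both genotypes, 7 of 9, with Krt13 at 8.74 and Lgals7 at 7.74, while Ivl was not well above background on any array. In Pirc rats alone 7 of the 9 were called higher, and in wildtype rats alone 2. The summed level of the 9 markers was 0.230 to 0.856 in untreated rats. After DSS it was 2.42, 6.2, 70.4 and 0.222 in wildtype rats 14, 18, 22 and 26, and 28.2, 52.1, 144 and 104 in Pirc rats 12, 16, 20 and 24. The part of each of these cell types in the collagen changes was not tested.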

How the data were processed

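The 18 collagens, their classes, the genes of the pathway and the marker lists were chosen with earlier results of these data known. The authors deposited, per the file headers, 1 Agilent Feature Extraction 10.7.3.1 output per array, whose processed signal is a linear fluorescence intensity after background subtraction, left unscaled from array to array. The submitters' processing notes name Partek. The build of the array design was used for no coordinate.

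Of 62976 spots per array, 4259 controls were left out. Outlier-flagged spots were dropped (25 probe values whose spots were all flagged were kept), log2 signals were centred on the 75th percentile of each array (875 to 2194 units), and spots were averaged to 30367 probes. RefSeq accessions named 18006 probes. No spot was saturated.

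limma 3.58.1 (R 4.3.3) fitted 1 mean per group over 16 arrays (lmFit, eBayes), with Benjamini-Hochberg adjustment over all probes and 7 comparisons. The comparisons share rats and are not independent. An "at least" fold sets the bright group against the lowest signal among probes well above background, or the probe's own signal where higher. Such a fold is a bound on the estimate for these rats, not a confidence limit. Named are the main collagens of the gut wall whatever their change, the called members with the largest changes (up to 5 each way per comparison), the 3 members with the largest difference of DSS effects, and up to 5 called genes of each list each way. The other members, pathway genes and markers named were chosen after their values were seen. Alternatives were quantile normalization, normexp (offset 50), a common floor, a filter leaving 21805 probes, slide or array row as a block, probe means, keeping outlier spots, fits without moderation or restricted to the groups compared, other thresholds and each rat left out, with slide rows as a block and rats 25 and 26 left out together added after seeing the data. The fit was tested on simulated data. The number of arrays limits the precision. Nothing in the labels says which rats shared a litter or cage. One marker of the colon epithelium list is not reported here.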

Additional observations from a re-analysis of the deposited data

Results flagged for a closer look

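In a search for single rats that stand apart from the others of their group, 100 groups of 4 rats were checked and 4 gaps passed, where chance flags about 1 in 20 groups, or 5. Col2a1 in DSS-treated wildtype rat 14 was at -4.02 on the log2 scale, above the other 3 rats at -4.38 to -4.35. Mrc2 in untreated wildtype rat 17 was at -8.07, below the others at -7.45 to -7.37. Itga1 stood apart in both wildtype groups, at -1.64 in untreated rat 25, above the others at -3.85 to -3.66, and at -2.74 in DSS-treated rat 22, below the others at -1.11 to -0.91.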

How the results depend on the processing

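No paired analysis was possible because the groups share no rat numbers and nothing in the labels ties rats of different groups together. The 8 collagens called higher with DSS over both genotypes were called under each alternative but normexp, which called 7, and 8 to 9 were called with 1 rat left out. In Pirc rats 4 to 9 members were called with 1 rat left out. In wildtype rats 2 to 9 were called with 1 rat left out, 2 when only the compared groups were fitted, and 3 without moderation. The last 2 of these fits called 326 and 522 of all probes higher in wildtype rats, in place of 719. Between genotypes over both treatments, 1 member was called in place of 0 without a minimum change, and 1 at an adjusted p of 0.20. In DSS-treated rats 1 was called without a minimum change. With normexp 1 collagen-making gene was called in place of 4, beside 521 of all probes called higher in place of 1519. The median change of the collagens was then 0.45 in place of 0.85, and that of all probes -0.02 in place of 0.06. The difference of the DSS effects for Col4a1 was -0.068 without DSS-treated wildtype rat 22, -0.065 with rats 25 and 26 left out, and 0.82 without rat 14, in place of 0.43. The cause was not tested in any of these. Blocking on the 4 slide rows or leaving out rats 25 and 26, both chosen after seeing the data, moved no count of calls by more than 1.5 times. Of the other values of single genes, 1009 kept their direction and their side of the adjusted p threshold, 77 lost significance and 11 gained it.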
